A study of Homo sapiens with 2 samples.

Results

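The genes described here encode the enzymes that attach ubiquitin and its relatives to proteins, and those that take them off again. They were the E1 activating enzymes, the E2 conjugating enzymes, the deubiquitinases, the SUMO proteases and SUMO proteins, the COP9 signalosome, and the ubiquilin and UBL proteins. Members were taken by symbol, as every named probe set whose gene symbol began with a name of these families (UBE2, UBA, USP, OTUD, UCHL, ATXN3, JOSD, STAMBP, CYLD, YOD1, SENP, SUMO, COPS, UBL and UBQLN). OTUB genes, BAP1 and ZRANB1 were also in the rule but no probe set used here named them. The rule gave 130 of the 13864 named genes, each read by a single probe set. RNA came from PC3, a human prostate cancer cell line, in 2 stable derivatives: cells overexpressing miR-95 and cells overexpressing a control microRNA. Each was measured on 1 Affymetrix array. Replicate errors and tests are therefore absent throughout, and the values describe these 2 arrays alone. Both lines were cultured in medium with serum, and the labels do not say whether either is a single clone or a pool. In a bulk sample such as this, fewer cells carrying a transcript and less of it per cell cannot be told apart.

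Ubiquitin is passed along a relay. An E1 enzyme activates it with ATP, an E2 enzyme carries it on a cysteine, and an E3 ligase guides it to the substrate, where chains of different linkage mark proteins for the proteasome, for sorting at endosomes or for signalling at sites of DNA damage. Deubiquitinases cut it off again and come in several unrelated folds, the cysteine proteases of the USP, OTU, UCH and Josephin families and the metalloproteases of the JAMM family. SUMO, NEDD8, ISG15 and UFM1 are related modifiers that use parallel relays of their own.

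MicroRNAs repress messenger RNAs that carry matches to their seed, the stretch from base 2 to base 8. The sequences of miR-95 are shown because its overexpression is what set the lines apart by design. The labels do not say which arm the construct raised. Both mature arms, from RefSeq (GRCh38.p14), are given 5′ to 3′ with the seed in capitals.
hsa-miR-95-3p: uUCAACGGguauuuauugagca
hsa-miR-95-5p: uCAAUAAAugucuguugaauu
Their seeds, UCAACGG and CAAUAAA, differ, so the arms would pair with different sites. The members were not searched for seed sites, and the level of miR-95 itself was not measured by any named probe set.

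The deposited values are on a log2 scale with unstated normalization, and the arrays were close to each other (Pearson's r = 0.996 across 23641 probe sets). Levels below are as deposited. Differences are log2 values, miR-95 cells minus control cells, taken after each array was centred on its median over genes (7.495 for miR-95 and 7.46 for control). Centring subtracts 0.035 from every deposited difference. A gene counted as detected when it reached the median of either array, and 7081 genes did. Their median difference was -0.035 and 59.4% of them were negative, so signs are read here against that median, and their robust SD was 0.148. Probe sets of one gene disagreed by a pooled SD of 0.132 in the 68 detected genes that had several, a guide to measurement spread that holds no variation between cultures. Of the cell line's markers, KRT8 (7.81 in miR-95 cells, 7.91 in control cells), KRT18 (8.02 and 7.86), EPCAM (8.66 and 8.82) and VIM (9.55 and 9.53) were detected, while the luminal prostate gene KLK3 lay below the detection rule (6.66 and 6.53). Of 11 leukocyte, endothelial and fibroblast markers 3 were measured and 1 was detected, CD68, a lysosomal protein, at 11.56 in miR-95 cells and 11.42 in control cells.

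Of the 130 members 98 were detected, 96 of them on both arrays. None of the 98 reached a 1.5-fold difference in either direction, against 0.861% of all detected genes that were lower by that much in miR-95 cells and 0.395% that were higher. The members lay around the middle of the array, with a median difference of -0.03 beside -0.035 for all detected genes. The interquartile range of the members ran from -0.115 to 0.095, and that of all detected genes from -0.135 to 0.065. Their robust SD was 0.163, beside 0.148 for all detected genes.

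A smaller limit, 0.32 on the log2 scale, was passed by 8 detected members on the lower side (8.16% of 98, against 5.38% of all detected genes) and by 4 on the higher side (4.08%, against 3.08%). The lower ones were SENP5, UBE2N, USP48, USP12, USP53, USP37, STAMBPL1 and ATXN3, and the higher ones USP38, COPS4, USP22 and USP5. These shares are near the background, and the split depended on the centring. With the values as deposited the counts were 3 lower and 6 higher, against 3.86% and 4.11% of all detected genes. The 3 lower ones were then SENP5, UBE2N and USP48, and the higher ones gained the deubiquitinases JOSD2 and USP21. After adjustment for the genomic span of each gene the counts were 3 lower and 4 higher, against 4.72% and 3.06% of all detected genes. The members nearest outside the limit in the centred values were JOSD2 and USP21 (each 0.305) and USP2 (0.265) on the higher side, with a wider gap on the lower side, where UBA3 and USP13 came next (each -0.245).

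**Figure D1:**
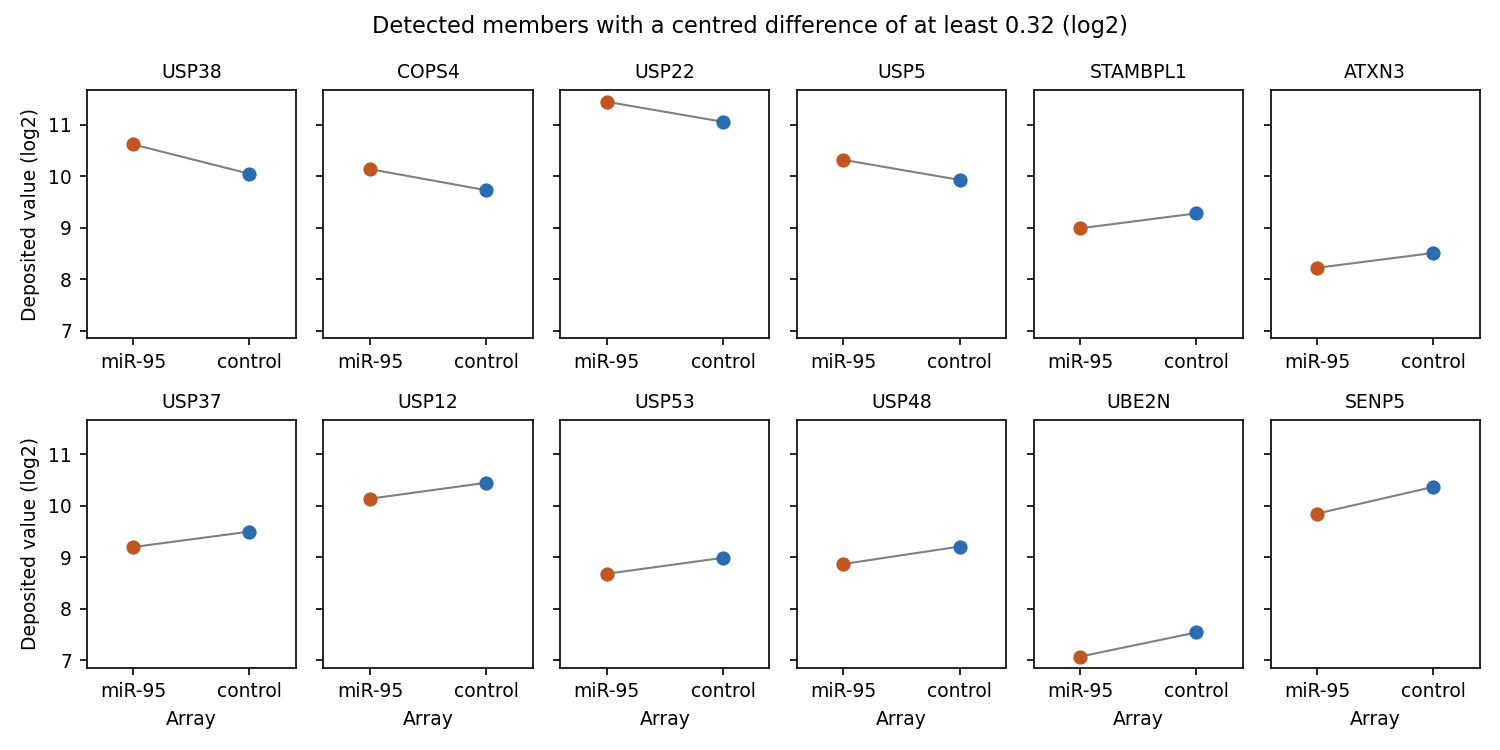
Deposited log2 values on the miR-95 array (left point) and on the control array (right point) for the 12 detected members with a centred difference of at least 0.32, from USP38 at 0.535 to SENP5 at -0.555. Each point is 1 array, so no error can be drawn, and UBE2N is the one whose miR-95 value lies below that array's median of 7.495.

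The E2 conjugating enzymes were the less scattered of the main families and lay slightly above the deubiquitinases. Of 23 E2 genes 21 were detected, with a median difference of 0.025, and 14 of the 21 lay above the median of all detected genes (66.7%, against 49.4% of all detected genes). Of the 65 deubiquitinase genes 50 were detected, with a median of -0.04, and 23 of the 50 lay above that median of all detected genes (46.0%). Both families were set by gene symbol and not by activity. They thus hold the inactive variants UBE2V1 and UBE2V2, the splicing factor USP39, and USP18, which removes ISG15. The gap between the family medians was 0.065, or 1.05-fold.

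The robust SD of the differences was 0.148 over E2 enzymes and 0.208 over deubiquitinases. Past 0.32 on the lower side were 1 of 21 E2 enzymes and 6 of 50 deubiquitinases (4.76% and 12.0%, against 5.38% of all detected genes). On the higher side were 0 of 21 and 3 of 50 (6.0% of deubiquitinases, against 3.08% of all detected genes). The deubiquitinase counts depended on the centring. With the values as deposited, USP48 was the only deubiquitinase past the limit on the lower side, where 3.86% of all detected genes lay. JOSD2 and USP21 then joined the higher ones, where 4.11% of all detected genes lay. The single E2 gene past the limit was UBE2N, which passed detection through the control array alone and drops out when both arrays must reach their median.

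**Figure D2:**
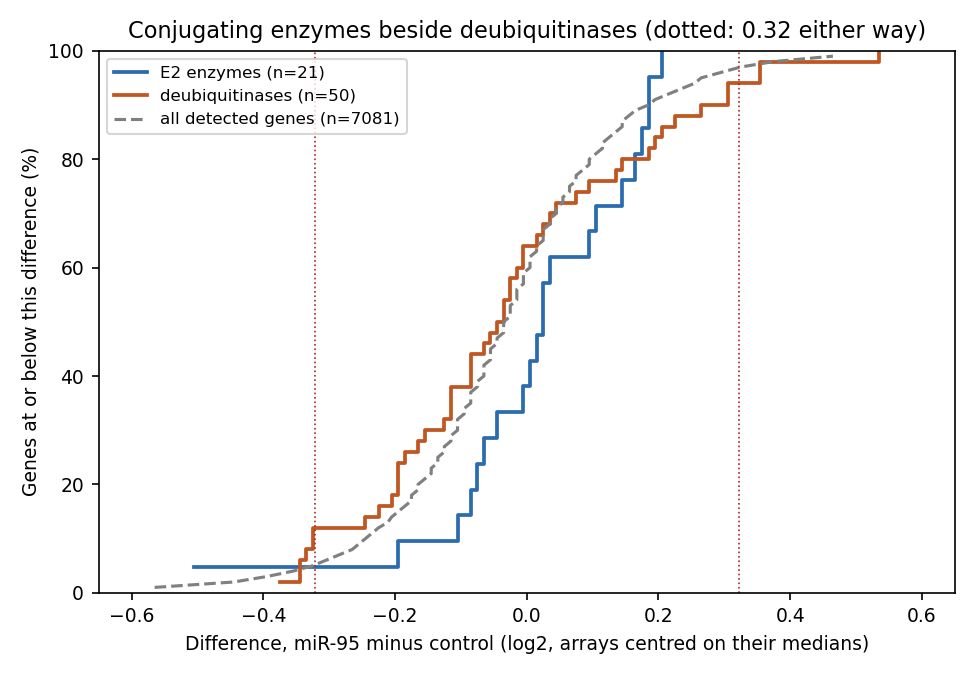
Share of genes (%) at or below each centred difference (log2, miR-95 minus control) for 21 detected E2 enzymes, 50 detected deubiquitinases and all 7081 detected genes. The E2 line runs to the right of the others through the middle (median 0.025, against -0.04 for deubiquitinases), while the deubiquitinase line is the flatter one and crosses the dotted lines at 0.32 on both sides.

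Genomic span moved with these differences, and E2 genes were shorter (median span 47865 bases) than deubiquitinase genes (60829 bases), both above the 29367 bases of all detected genes. Across all detected genes, which are not independent replicates, differences declined with span (Spearman's rho = -0.238). Over E2 enzymes rho was 0.229 (21 genes) and over deubiquitinases -0.264 (50 genes). The order of the families varied over 4 equal classes of span. From the shortest to the longest class, the E2 medians were 0 (4 genes), 0.02 (2 genes), -0.055 (8 genes) and 0.095 (7 genes). The deubiquitinase medians in the same order were 0.305 (3 genes), -0.035 (7 genes), -0.085 (20 genes) and -0.025 (20 genes), against 0.015, -0.025, -0.065 and -0.075 for all detected genes. After adjustment for span the gap between the family medians was 0.026 in place of 0.065.

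**Figure D3:**
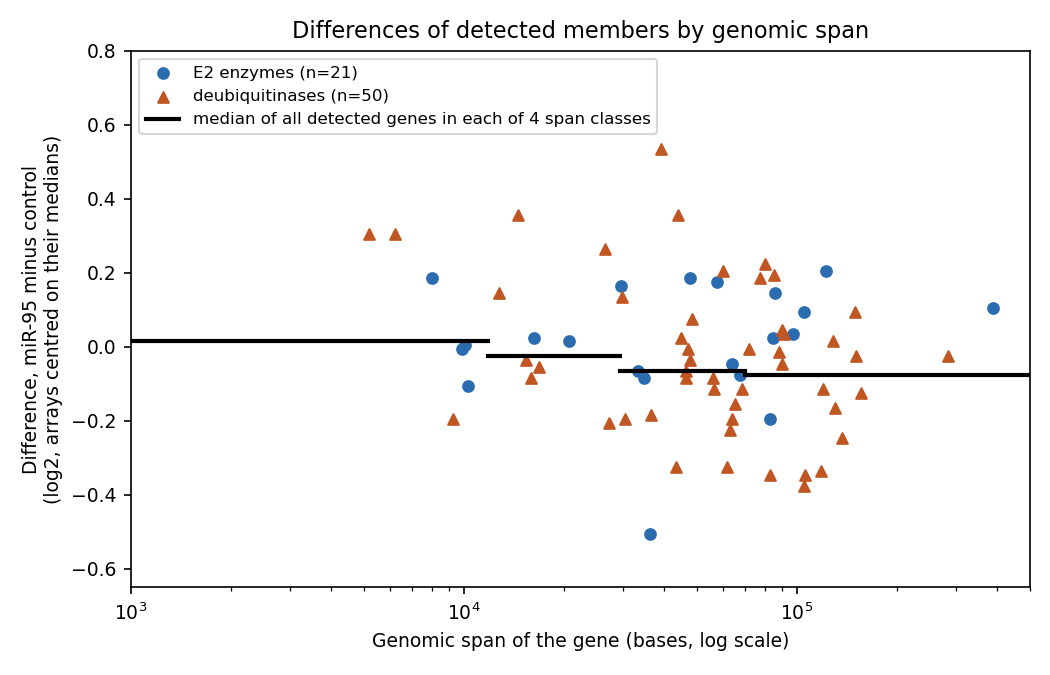
Centred difference (log2, miR-95 minus control) against genomic span (bases, log scale) for detected E2 enzymes (circles) and deubiquitinases (triangles), with the median of all detected genes in each of 4 equal classes of span as bars. The bars step down from 0.015 in the shortest class to -0.075 in the longest, and 40 of the 50 deubiquitinases lie in the longer 2 classes.

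At the head of the relay, the 3 detected E1 genes were below the median of detected genes, UBA3 by the most. Of all detected genes 48.0% lay below that median. UBA1, which activates most of the cell's ubiquitin, read 12.21 in miR-95 cells and 12.24 in control cells, a difference of -0.065. UBA6, which activates ubiquitin and FAT10, differed by -0.085. UBA3, the catalytic subunit of the NEDD8-activating enzyme, read 10.65 in miR-95 cells and 10.86 in control cells (-0.245). Its partner NAE1, outside the symbol rule, lay close to it at -0.195 (11.67 in miR-95 cells and 11.83 in control cells). The ISG15-activating enzyme UBA7 lay below the detection rule at -0.055.

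Among the E2 enzymes UBE2N stood lowest. UBE2N, also known as Ubc13, builds chains used in signalling and DNA damage tolerance together with the catalytically inactive variants UBE2V1 and UBE2V2. It read 7.07 in miR-95 cells and 7.54 in control cells, 1.42-fold lower after centring, and 98th when the 7081 detected genes are ordered from the lowest. It counted as detected through the control array alone, where it lay just above the median. Its partners did not share that size of difference: UBE2V1 was at -0.085 and UBE2V2 at -0.075, which places UBE2N 0.42 and 0.43 below them.

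The next lowest detected E2 enzyme was UBE2E3 at -0.195 (8.50 in miR-95 cells and 8.66 in control cells). Its close relatives were on the other side, UBE2E1 at 0.145 and UBE2E2 at 0.105. UBE2E1 passed detection through the miR-95 array alone (7.60, against 7.42 in control cells). The highest detected E2 enzymes were close together. UBE2H, the conjugating enzyme of the CTLH ligase, read 9.72 in miR-95 cells and 9.48 in control cells (0.205). UBE2S, which lengthens chains for the anaphase-promoting complex, read 9.14 in miR-95 cells and 8.92 in control cells (0.185), as did UBE2QL1 in difference (0.185). UBE2Q2 and UBE2D4 followed at 0.175 and 0.165.

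The other detected E2 genes lay between -0.105 and 0.095. UBE2R2, a partner of cullin ligases, was at 0.095, and UBE2T, which works with FANCL in the Fanconi anaemia pathway, at -0.105. UBE2G1, UBE2K, UBE2Z, UBE2Q1 and UBE2A lay between -0.005 and 0.035. UBE2G2, of endoplasmic reticulum-associated degradation, was at -0.065, and UBE2O, a large enzyme that acts as both E2 and E3, at -0.045. UBE2B, the close relative of UBE2A that also works with RAD18, lay below the detection rule at -0.245 (6.58 in miR-95 cells and 6.79 in control cells), as did UBE2U at 0.145.

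The USP family, the largest group of deubiquitinases, spanned the range from -0.375 to 0.535 over 37 detected genes, with a median of -0.025. USP38 was the highest member of all, at 10.62 in miR-95 cells and 10.05 in control cells. It was 1.45-fold higher after centring, and 40th in the order from the highest difference of 7081. USP22, the deubiquitinase of the SAGA complex that acts on histones, read 11.45 in miR-95 cells and 11.06 in control cells (0.355, 1.28-fold higher). USP5, which takes apart unanchored ubiquitin chains, read 10.32 in miR-95 cells and 9.93 in control cells and had the same difference. After these came USP21, another histone deubiquitinase, at 0.305 and USP2 at 0.265.

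On the lower side USP48 read 8.87 in miR-95 cells and 9.21 in control cells, 1.30-fold lower. USP12 was 1.27-fold lower (10.14 in miR-95 cells and 10.45 in control cells). USP37, which acts on cyclin A, was 1.26-fold lower (9.20 in miR-95 cells and 9.50 in control cells). USP53 matched USP12 at 1.27-fold lower (8.68 in miR-95 cells and 8.99 in control cells). These 4 are the lowest USP genes by choice, and 5.38% of all detected genes were lower by as much as the limit.

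Close relatives within the USP family lay between 0.06 and 0.6 apart, in a family whose robust SD was 0.237. USP5 and its paralog USP13 lay 0.6 apart, at 0.355 and -0.245. USP53 and USP54 lay 0.36 apart, with USP54 at 0.015. USP12 and USP46, which like USP1 are switched on by WDR48, were at -0.345 and -0.115, while USP1 itself was at -0.035 (10.41 on both arrays) and WDR48, outside the symbol rule, at 0.055. USP4 and USP15, linked to TGF-beta receptor signalling, differed less from each other, at -0.225 and -0.125. USP16 and USP45 were both above 0, at 0.135 and 0.195.

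Of the USPs best known for particular substrates, USP7, which acts on MDM2, was at -0.005 (10.80 in miR-95 cells and 10.77 in control cells). CYLD, a tumour suppressor that restrains NF-kB signalling, was at 0.205 (9.0 in miR-95 cells and 8.76 in control cells). USP14, which sits on the proteasome, was at -0.085. USP39, a splicing factor with a USP fold, was also at -0.085. USP28 was at 0.185 and its paralog USP25 at -0.025. The USP genes not described elsewhere, USP24, USP31, USP34, USP35, USP40, USP42 and USP47, ran from -0.115 to 0.225.

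Endosomal and mitochondrial deubiquitinases lay mostly below the median of detected genes, 6 of 7 in the list (85.7%, against 48.0% of all detected genes). The list median was -0.125, and USP8 and USP20 lay only -0.01 and -0.03 from the median of detected genes. STAMBPL1 was the lowest, at 8.99 in miR-95 cells and 9.28 in control cells (-0.325). STAMBP, its paralog at the endosomal sorting machinery, differed by 0.025. USP33 was at -0.195 and its paralog USP20 at -0.065. USP30, which sits on the outer mitochondrial membrane and opposes mitophagy, was at -0.155, and USP8, of receptor sorting, at -0.045. The median span of these genes was 63866 bases, and all detected genes of that class of span had a median of -0.065. The part of span in the list's position was not tested.

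The detected OTU deubiquitinases lay mostly on the low side. Of 6 detected genes 5 were below the median of detected genes (83.3%, against 48.0% of all detected genes), OTUD6B by only 0.02. The median of the 6 was -0.175, and no OTUB gene was measured. OTUD3 and YOD1, a partner of the segregase VCP, were each at -0.195, OTUD5 at -0.185 and OTUD7B at -0.165. OTUD6B (10.72 in miR-95 cells and 10.74 in control cells) was at -0.055 and OTUD4 at -0.005. No detected OTU gene passed 0.32, where 5.38% of all detected genes lay on the lower side and 3.08% on the higher side. With 6 genes a count of 0 is near those shares. OTUD3 (7.62 in miR-95 cells and 7.78 in control cells) and YOD1 (7.64 and 7.80) read close to the array medians. OTUD1, below the detection rule, was at -0.415 (6.10 in miR-95 cells and 6.48 in control cells), OTUD7A at -0.245 and OTUD6A at 0.115.

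The Josephin genes went both ways. ATXN3, the protein expanded in Machado-Joseph disease, read 8.22 in miR-95 cells and 8.51 in control cells (-0.325). JOSD2 read 8.92 in miR-95 cells and 8.58 in control cells (0.305), while JOSD1 was at -0.085. The paralogs JOSD2 and JOSD1 thus lay 0.39 apart. UCHL3 was at -0.115 and UCHL5, which binds the proteasome, at -0.035, and UCHL1, an enzyme of neurons and some tumours, lay below the detection rule (5.54 in miR-95 cells and 5.64 in control cells).

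**Figure D4:**
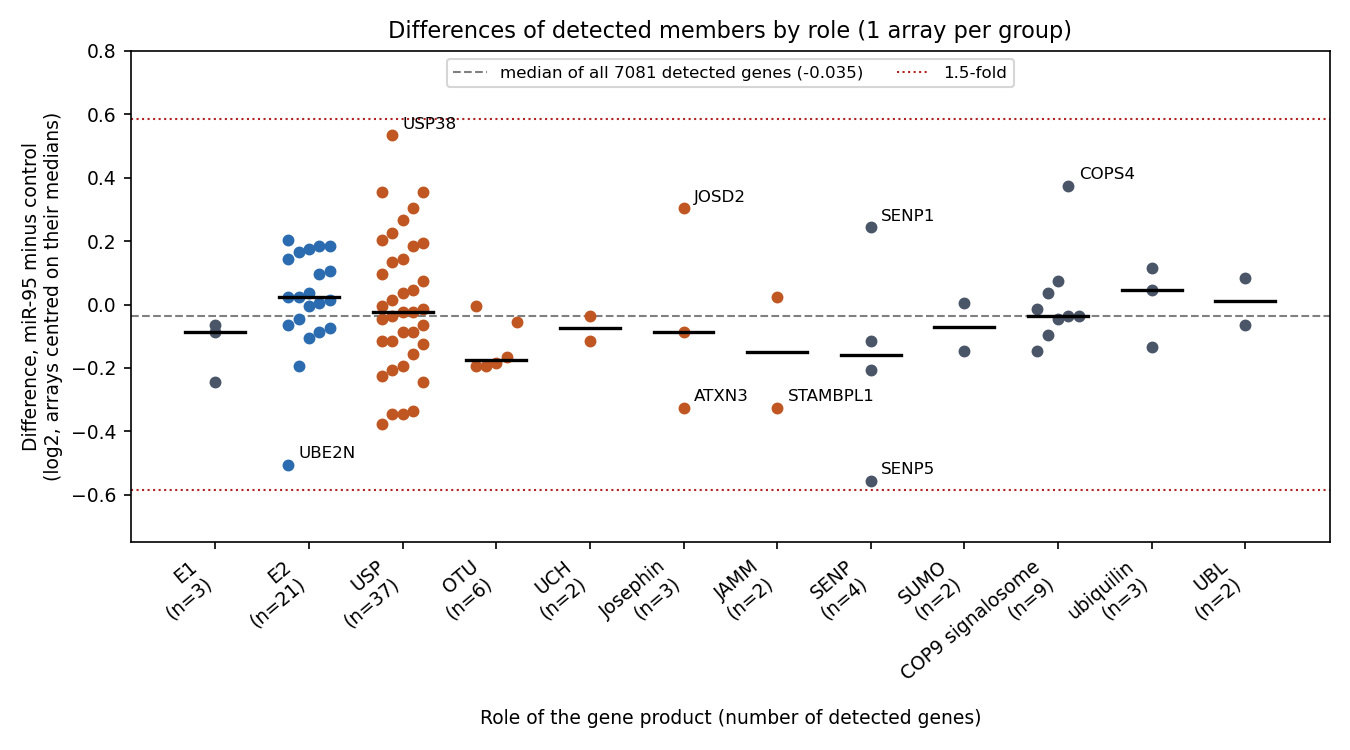
Centred differences (log2, miR-95 minus control) of detected members by role, with a bar at the median of each role, a dashed line at the median of all detected genes (-0.035) and dotted lines at 1.5-fold. Each point is 1 gene measured on 1 array per group. No point reaches the dotted lines, and USP genes spread the widest, from -0.375 to 0.535.

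The SUMO system held the lowest detected member. SENP5, a SUMO protease found in the nucleolus, read 9.85 in miR-95 cells and 10.37 in control cells, 1.47-fold lower after centring, and 74th in the order from the lowest difference of 7081. SENP1, which matures SUMO and removes it from substrates, was on the other side, at 11.01 in miR-95 cells and 10.73 in control cells (0.245). These 2 proteases lay 0.8 apart. The chain-editing proteases SENP6 and SENP7 were at -0.115 and -0.205. SUMO2 was at -0.145 and SUMO3 at 0.005, and the E1 subunit SAE1, outside the symbol rule, at -0.165. Of the 7 detected genes of the SUMO list 5 lay below the median of detected genes (71.4%, against 48.0% of all detected genes). The list median was -0.145.

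In the NEDD8 system the COP9 signalosome, the complex that strips NEDD8 from cullins, was measured for 9 of its genes and all 9 were detected. Their median of -0.035 was that of all detected genes. COPS4 was set apart from the rest, at 10.14 in miR-95 cells and 9.73 in control cells (0.375, 1.30-fold higher). COPS5, the catalytic subunit, had 8.35 on both arrays. The other subunits ran from COPS7B at -0.145 to COPS6 at 0.075, and COPS2 had 12.17 on both arrays. GPS1, the subunit the symbol rule leaves out, was at 0.035. SENP8, which acts on NEDD8, lay below the detection rule at 0.155.

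The ISG15 genes are induced by interferon. USP18, which removes ISG15, read 10.43 in miR-95 cells and 10.60 in control cells (-0.205), and ISG15 itself 8.31 in miR-95 cells and 8.41 in control cells (-0.135). UBE2L6, the E2 of this modifier, was at 0.025 (8.39 in miR-95 cells and 8.33 in control cells). In the branch of UFM1 and FAT10, UBE2Z, the E2 charged by UBA6, was at 0.015, and UFC1, UFSP2 and UFM1 were at 0.085, -0.005 and -0.055.

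**Figure D5:**
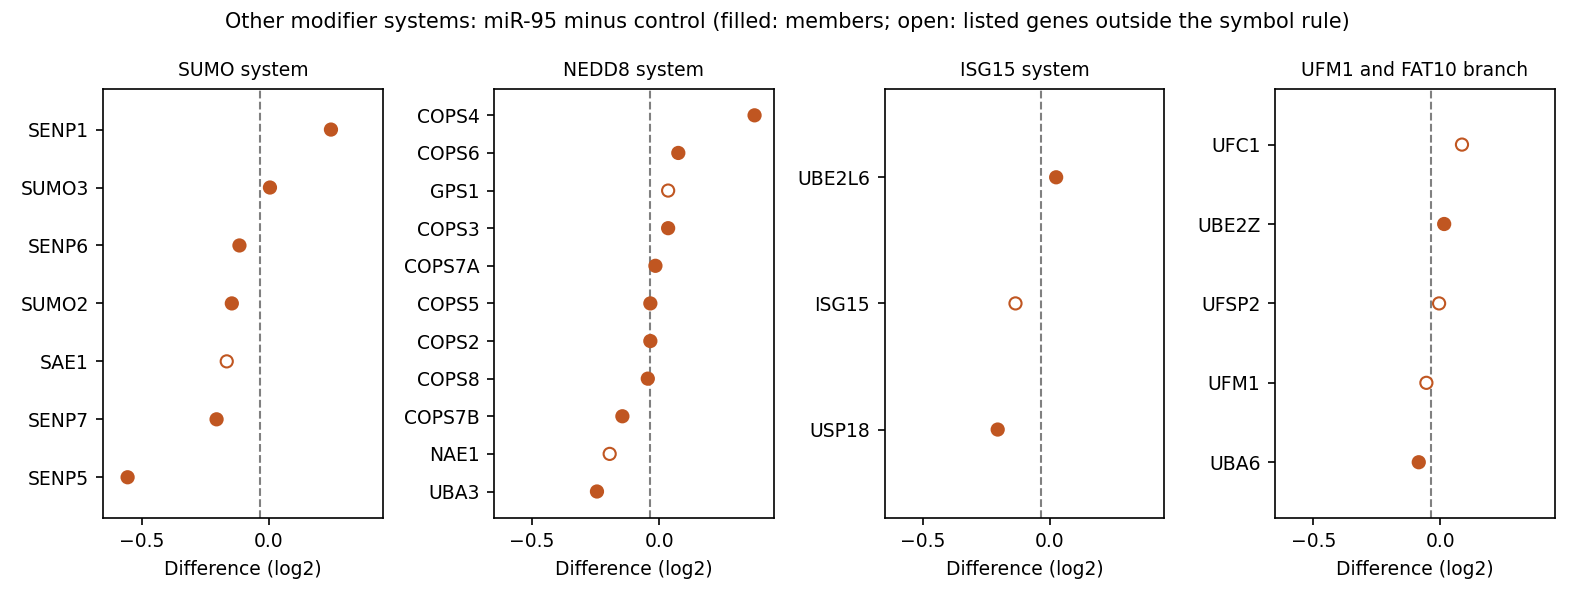
Centred differences (log2, miR-95 minus control) of detected genes of the SUMO, NEDD8, ISG15, and UFM1 and FAT10 lists, filled for members and open for listed genes outside the symbol rule, with a dashed line at the median of all detected genes. SENP5 (-0.555) and SENP1 (0.245) lie at opposite ends of the SUMO list, and COPS4 (0.375) lies apart from the other signalosome subunits.

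The gene lists were chosen with earlier results of these data known, so shares within a list describe its own genes alone. By pathway, the 4 detected deubiquitinases of the chromatin list were all above the median of detected genes, as were 49.4% of all detected genes. USP22 was at 0.355, USP21 at 0.305, USP16 at 0.135 and USP7 at -0.005, only 0.03 above that median. BAP1 and USP27X of this list were not measured. USP49 and USP51, below the detection rule, were at 0.225 and -0.295. Of the 5 detected genes of the cell cycle list 4 were above the median of detected genes (80%, against 49.4% of all detected genes). They were UBE2S, USP22, UBE2R2 and CDC34 (0.005, outside the symbol rule), with USP37 at -0.335 below that median. UBE2C and UBE2D1 of this list were not measured, and USP44, below the detection rule, was at -0.505. In the DNA damage and repair list of 10 detected genes the median was -0.035, equal to that of all detected genes, with UBE2N the lowest and USP28 the highest, and USP3 at 0.045. For endoplasmic reticulum-associated degradation the 9 detected genes had a median of -0.025. In that list ATXN3 was the lowest, USP19 the highest at 0.145 (10.47 in miR-95 cells and 10.29 in control cells), and the shuttle factors UBQLN1, UBQLN4 and UBQLN2 were at 0.115, 0.045 and -0.135. The NF-kB and TGF-beta list had 5 detected genes, of which 3, USP4, OTUD7B and USP15, lay below the median of detected genes. That is 60%, against 48.0% of all detected genes. Among the UBL genes UBL7 was at 0.085 and UBL3 at -0.065.

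Beyond the symbol rule, 54 other genes of these pathways were listed, of which 28 were measured and 27 detected. None of the 27 passed 0.32, where 5.38% of all detected genes lay on the lower side and 3.08% on the higher side. In a list of 27, shares of that size amount to few genes. The median of the 27 was -0.025. Nearest to the limit were USPL1, a SUMO protease despite its name, at -0.305 (9.08 in miR-95 cells and 9.35 in control cells), and DESI2 at 0.295 (10.75 in miR-95 cells and 10.42 in control cells). The polyubiquitin gene UBB read 8.10 on both arrays, and VCP was at 0.045.

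The 32 members below the detection rule held 10 USP genes, 3 OTU genes, 2 E2 genes and 11 pseudogenes, antisense or divergent transcripts, with 1 each from the E1, Josephin, UCH, SENP, SUMO and UBL groups. Their differences ran from -0.505 to 0.225 (median -0.005) and none passed 1.5-fold. The lowest was USP44, at 3.72 in miR-95 cells and 4.19 in control cells. USP17L12 and USP17L9P had identical values (5.91 in miR-95 cells and 5.70 in control cells), and genes of that family are near-identical copies whose probes may read each other. The 4 detected entries outside the role groups were USP6NL, a RAB GTPase-activating protein (0.195), the pseudogene UBE2MP1 (0.125), the divergent transcript UBL7-DT (0.025) and the readthrough entry SENP3-EIF4A1 (-0.035), whose exons are shared with SENP3 and EIF4A1.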

How the data were processed

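RNA of 2 stable PC3 lines, miR-95 and control, was measured on 1 Affymetrix array each. The deposited table holds log2 expression values, the unit being read from their range (1.79 to 13.83 for miR-95, 1.94 to 13.84 for control). They were made with Affymetrix Expression Console 1.2, per the submitters' processing notes. Not given in the sources used here were the summarisation, background correction, normalization and genome build. The percentiles of the arrays, from 1 to 99, lay within 0.04 of each other, so a change common to all transcripts could not be seen.

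Platform annotation named 14088 of 23641 probe sets (59.6%) with 1 gene each and 0 with several. The other 9553 have no gene name here. All 14088 matched RefSeq (GRCh38.p14) by Entrez identifier, used for symbols and gene span. Probe sets of a gene were averaged, arrays were centred on their medians over genes, and a gene was detected when either value reached its array's 50th percentile. With 1 array per group no test, standard error or p-value was possible, and the number of arrays limits the precision. Members, gene lists and pairs were chosen with earlier results of these data known. The genes named were the extremes of each role, the brightest of each role and members of the listed pathways. Others past or next to 0.32 on the log2 scale (the second limit), close relatives (such as USP5, USP13, USP53, UBE2E1 and USP46) and a few more members (such as USP2, USP39, UBE2D4 and UBE2O) were named after their values were seen. Span loess used a smoothing span of 0.4. Steps were tested on simulated data. Python 3.11.15, pandas 2.3.3 and statsmodels 0.14.6 were used.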

Additional observations from a re-analysis of the deposited data

How the results depend on the processing

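The alternatives were no centring, loess, quantile normalization, 4 other detection rules, the brightest probe set per gene, an offset of 32 on the linear scale, and adjustment for gene span. The count of members past 1.5-fold was 0 in both directions under each of these. With the limit at 0.32 on the log2 scale it was 8 lower and 4 higher. The count past 0.32 on the lower side, whose alternatives were added after seeing the data, fell to 3 with the values as deposited, with loess, with quantile normalization and after span adjustment, and to 4 with detection at the 75th percentile and with the offset. It was 6 with the brightest probe set, 7 with both arrays at their median, 9 with detection at the 25th percentile and 10 with no filter on dim genes. The count past 0.32 on the higher side ran from 4 to 6. The median of E2 enzymes stayed above that of deubiquitinases under each alternative, by 0.026 (span adjustment) to 0.065. Of the 98 detected members 82 kept the sign of their difference under each alternative that detected them, and the 16 others, which changed sign or reached 0, had differences of at most 0.055 in size. No paired analysis was possible because each group has 1 array. The single array per group and the single probe set per member limit every value.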
